A study of Rattus norvegicus with 6 samples.

Results

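A microRNA (miRNA) precursor is a hairpin that is cut into a duplex of 2 short strands. The guide strand is loaded into an Argonaute protein and directs the repression of messenger RNAs that match its seed, bases 2 to 8, while the passenger strand is mostly discarded and degraded. In older miRNA names the passenger strand carries an asterisk, which marks the arm that was scarcer when the miRNA was named and not its state in a given sample. Circulating miRNAs are protected from plasma nucleases by proteins and vesicles, and plasma holds miRNAs of blood cells and of injured organs.

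The 239 passenger strands described here are all miRNAs on a rat array whose name ends in an asterisk, without miR-122*, out of 677 miRNAs on the array. They were chosen by name and not by their values. Plasma came from 6 male Wistar rats, with 1 array per animal. The 3 vehicle rats received 0.9% saline, and the 3 thioacetamide rats received thioacetamide, a liver toxicant, at 100 mg/kg in the same saline. Both were given into the peritoneum, and plasma was taken after 24 h, when the animals were killed. Start weights were 393 to 428 g, and an age is not given in the labels used here. RNA was extracted from 125 µl of each plasma, so signals are per volume of plasma. More cells releasing a miRNA and more of it released per cell cannot be told apart.

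The scanner files place the arrays in columns 1 to 4 of a slide, and they are grouped here by slide side. That the sides were handled apart is not stated in the labels. Slide columns 1 and 2 held vehicle 2, vehicle 3 and thioacetamide 1, and columns 3 and 4 held vehicle 1, thioacetamide 2 and thioacetamide 3. The median absolute deviation of the passenger spots, most of which lie at background, was 31.6, 34.6 and 92.4 on the 3 arrays of columns 1 and 2, in that order. It was 4.09, 6.55 and 10.2 on those of columns 3 and 4. The lowest signal of a probe well above background was 136 to 445 in columns 1 and 2 and 19.6 to 46.4 in columns 3 and 4. Detection is therefore given by slide side throughout. As a check of the labelled tissue, 3 of 4 liver guide strands and 2 of 3 erythrocyte guide strands were detected on at least 1 array, against 0 of 6 for muscle and heart and 0 of 5 for brain.

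The mature sequences of the detected passenger strands are shown because the seed, in capitals, defines what each strand could pair with, and because base composition returns below beside the signals. The sequences are RefSeq's (assembly GRCr8) and were matched through the probes. A mature sequence was matched for 219 of the 239 passenger strands and for 11 of the 13 that were detected; for miR-150* and miR-328a* no sequence was matched.
let-7d*: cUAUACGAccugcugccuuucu
let-7b*: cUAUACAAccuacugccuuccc
miR-208*: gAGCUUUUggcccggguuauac
miR-483*: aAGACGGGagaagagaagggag
miR-466b-1*: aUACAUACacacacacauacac
miR-466b-2*: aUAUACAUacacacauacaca
miR-211*: gGCAAGGAcagcaaaggggg
miR-652*: aCAACCCUaggagggggugccau
miR-140*: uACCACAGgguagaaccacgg
miR-455*: gCAGUCCAcgggcauauacacu
miR-194*: cCAGUGGGgcugcuguuaucu
Of these 11, 3 are the 5′ arm and 8 the 3′ arm of their hairpin. let-7b* shares its seed UAUACAA with let-7a-1*, let-7f-1* and miR-98*, none of which was detected. The seeds of the other 10 were each found in no other of the 219 passenger strands with a matched sequence. The target of each detected strand's shortest probe, 10 to 20 bases long, was present in 0 other rat mature miRNAs of RefSeq.

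Few passenger strands were measurable in plasma. Detection on an array required that, for any probe of the miRNA, over 50% of the spots were well above background. By that rule 13 of 239 passenger strands (5.44%) were detected on at least 1 array, against 86 of the 438 other miRNAs (19.6%). The background over all 677 miRNAs was 14.6%. The other 226 passenger strands were detected on 0 arrays. Just outside the rule, the highest share of spots above background on any array and probe was 50% for miR-326*, exactly at the limit. It was 30% for miR-296* and 30% for miR-487b*. The member nearest the limit inside the rule was miR-466b-2*, at 90%. Only let-7d* was detected on all 6 arrays, and 9 passenger strands were detected on at least 3.

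The number of passenger strands detected was 8, 5 and 3 on vehicle 1 to 3 and 1, 9 and 13 on thioacetamide 1 to 3. The array with the widest background, thioacetamide 1, held the fewest and thioacetamide 3 the most. The mean was 5.33 ± 2.52 with vehicle and 7.67 ± 6.11 with thioacetamide (SD, n = 3 each), and the difference of 2.33 was smaller than the spread between arrays (exact two-sided permutation test, p = 0.6; the smallest p that 3 against 3 can give is 0.1). Within columns 1 and 2 the thioacetamide array held 3 fewer than the mean of the vehicle arrays, and within columns 3 and 4 the thioacetamide arrays held 3 more. By slide side, 5 passenger strands were detected on both sides (let-7d*, let-7b*, miR-208*, miR-466b-1* and miR-483*) and 8 in columns 3 and 4 alone.

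**Figure D1:**
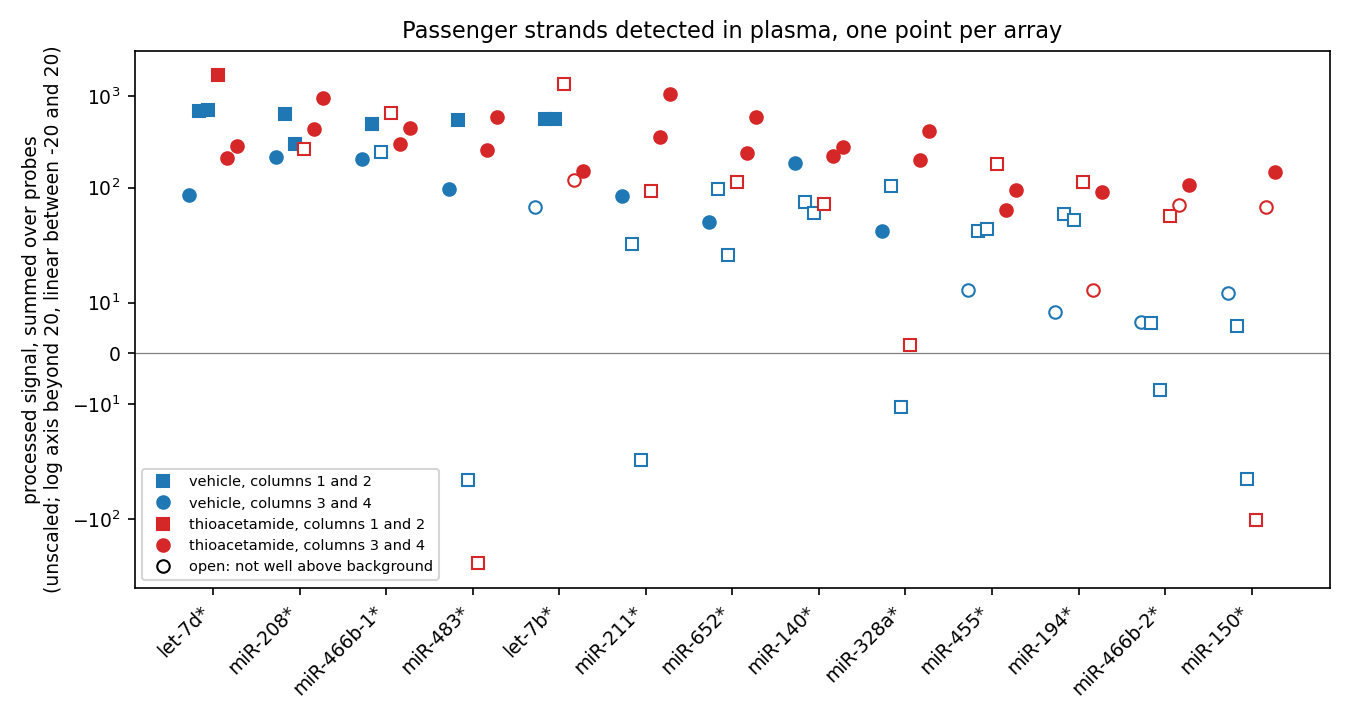
Processed signal, summed over probes and not scaled between arrays, of the 13 detected passenger strands on each of the 6 arrays; the vertical axis is logarithmic beyond 20 and linear between -20 and 20. Blue is vehicle and red thioacetamide, squares are slide columns 1 and 2 and circles columns 3 and 4, and open marks are not well above background. The let-7 squares lie above the circles, and miR-211*, miR-652*, miR-140* and miR-328a* have filled circles only.

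The let-7 passenger strands came from a family of abundant miRNAs that restrain growth genes. let-7d* (chr17:22121966-22121982, plus strand, rn4; coordinates are those the scanner files give for the longest probe, a span 1 base shorter than the probe) had unscaled signals of 83.6, 693 and 701 on vehicle 1 to 3 and 1697, 211 and 286 on thioacetamide 1 to 3. let-7b* (chr7:123701272-123701286, plus strand) had signals of 62.3, 563 and 562 and then 1348, 121 and 154, and was detected on vehicle 2, vehicle 3 and thioacetamide 3. For both strands the 3 arrays of columns 1 and 2 were all brighter than the 3 of columns 3 and 4, and the treatment groups overlapped. Between the vehicle arrays of columns 1 and 2 the signals were nearly equal, with ratios of 1.01 for let-7d* and 0.998 for let-7b*, and thioacetamide 1 stood 2.45 and 2.40 times above vehicle 2.

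The let-7d* probes are nested, and they are printed because the ratio of their signals differed between the slide sides. Guanines are in capitals.
let-7d* probe of 15 bases: aGaaaGGcaGcaGGt
let-7d* probe of 18 bases: aGaaaGGcaGcaGGtcGt
The shorter of these gave 130 and the longer 211 on vehicle 2, while on thioacetamide 2 they gave 11.6 and 128. On vehicle 1 they gave 9.91 and 41.6. As a ratio, the rise with length was thus larger in columns 3 and 4. In signal units it was not ordered by slide side, and the largest step was on thioacetamide 1, from 311 to 565. Of the other 7 let-7 passenger strands on the array, including that of miR-98, 0 were detected by the spot rule.

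miR-208*, RefSeq's miR-208a-5p, lies inside Myh6, the gene of a cardiac myosin heavy chain (chr15:33051979-33051992, minus strand). Its signals were 215, 641 and 298 on vehicle 1 to 3 and 264, 437 and 951 on thioacetamide 1 to 3, and it was detected on every array but thioacetamide 1. The groups overlapped, and so did the slide sides. Its brighter probe is printed because it was far above the brightest probe of any undetected passenger strand on most arrays; guanines are in capitals.
miR-208* probe: GtataacccGGGcc
That probe gave 12.6, 3.50 and 1.39 times the highest signal of an undetected passenger probe on vehicle 1 to 3, and 0.584, 9.40 and 13.99 times on thioacetamide 1 to 3. The 6 muscle and heart guide strands (miR-1, miR-133a, miR-133b, miR-206, miR-208 and miR-499) were at background, with summed signals of -213 to 6.49 over the vehicle arrays and -619 to 8.67 over the thioacetamide arrays. Of the 6 passenger strands of that list, miR-208* was the only one detected.

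miR-483* and the miR-466b passenger strands were the others measured on both slide sides. miR-483* lies inside Igf2, which encodes a fetal growth factor (chr1:202910626-202910637, minus strand). Its signals were 95.9, 555 and -37.3 on vehicle 1 to 3 and -303, 255 and 588 on thioacetamide 1 to 3. It was detected on vehicle 1, vehicle 2, thioacetamide 2 and thioacetamide 3, and each group held an array below 0. The 4 probes of miR-483* hold 0 guanines. Inside Sfmbt2, which encodes a Polycomb-group protein, lies a repeated miRNA cluster that includes miR-466b-1* (chr17:79291613-79291630, minus strand) and miR-466b-2* (chr17:79288584-79288603, minus strand). Signals of miR-466b-1* were 206, 492 and 247 on vehicle 1 to 3 and 658, 302 and 451 on thioacetamide 1 to 3, the narrowest range of these 5, and it was detected on the same 4 arrays as miR-483*. miR-466b-2* was detected on thioacetamide 3 alone, at 107. Both are repeats of short a, c and u units without a guanine.

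A set of 4 passenger strands was detected on exactly the 3 arrays of columns 3 and 4, which hold 1 vehicle and 2 thioacetamide animals. miR-211*, inside the melanocyte channel gene Trpm1 (chr1:118642467-118642479, plus strand), had signals of 80.3, 358 and 1060 on vehicle 1, thioacetamide 2 and thioacetamide 3. On vehicle 2, vehicle 3 and thioacetamide 1 it had 24.4, -22.6 and 91.5. miR-652*, inside Tmem164 (chrX:35821343-35821355, minus strand), had signals of 42.3, 240 and 592 on that first set of arrays. In both cases vehicle 1 was the dimmest and thioacetamide 3 the brightest of the 3 arrays. miR-328a* (chr19:35122567-35122579, minus strand) followed the same order at 33.6, 199 and 412. miR-140*, inside Wwp2 and from a miRNA known for cartilage (chr19:37422771-37422784, plus strand), differed less, at 188, 222 and 276. On the arrays of columns 1 and 2 the signals of miR-652*, miR-328a* and miR-140* were between -10.6 and 115, below the lowest signal called well above background on each of those arrays, so a level like that of columns 3 and 4 was in part not detectable there.

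The last 4 of the 13 passenger strands (30.8%) were detected on thioacetamide arrays and on 0 vehicle arrays, against 28 of all 99 detected miRNAs (28.3%). Of the 4, 3 were called on thioacetamide 3 alone, the array with the most detected miRNAs (83). That is 3 of 13 passenger strands (23.1%), against 11 of all 99 detected miRNAs (11.1%). On vehicle arrays alone 0 of 13 were detected, against 12 of 99 (12.1%). miR-455*, inside the collagen gene Col27a1 (chr5:80239900-80239915, plus strand), was detected on thioacetamide 2 and 3 at 56.8 and 95.02. Its signals were 12.4, 33.4 and 35.4 on vehicle 1 to 3 and 179 on thioacetamide 1. The signal on thioacetamide 1 was under that array's limit of 445, and the vehicle signals were not well above background. miR-194*, whose guide is enriched in liver and gut (chr1:209040127-209040141, plus strand), was detected on thioacetamide 3 at 90.3, and so was miR-150*, whose guide is a lymphocyte miRNA (chr1:95596135-95596146, plus strand), at 147. A lower bound on the fold between groups, taken from the detection limits of the vehicle arrays, was under 1 for each of miR-455*, miR-194*, miR-466b-2* and miR-150*, so no fold is given.

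Feature Extraction, the scanner's software, makes its own call per miRNA, and it named 27 passenger strands, the 13 and 14 more. Of the 27, it called 5 on both slide sides, 15 in columns 3 and 4 alone and 7 in columns 1 and 2 alone. The 7 were let-7e*, miR-130b*, miR-18a*, miR-34b*, miR-487b*, miR-675* and miR-7a-2*, and the others called by it alone were miR-193*, miR-296*, miR-30a*, miR-32*, miR-326*, miR-466c* and miR-99b*. The 7 resembled one another in their values: thioacetamide 1 over vehicle 2 was 2.32 to 2.75 and vehicle 3 over vehicle 2 was 1.00 to 1.14. The corresponding ratios of let-7d* and let-7b* lay in or near those ranges. The longest probe of each of the 7 was 35 to 46.7% guanine.

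The 568 probes of the 226 undetected passenger strands carried a pattern that repeated between arrays, most closely within columns 1 and 2. Across these probes, which share the arrays and their base composition, Pearson's r was 0.981 to 0.987 for the 3 pairs of arrays in columns 1 and 2. It was 0.752 to 0.907 for the 3 pairs in columns 3 and 4 and 0.610 to 0.869 for the 9 pairs between sides. Vehicle 1, of columns 3 and 4, had r of 0.869, 0.854 and 0.857 with vehicle 2, vehicle 3 and thioacetamide 1 of the other side. With thioacetamide 2 and 3 of its own side it had lower values, 0.786 and 0.752. The regression slope of thioacetamide 1 on vehicle 2 was 2.73, and that of vehicle 3 on vehicle 2 was 1.07, close to the ratios of let-7d*, let-7b* and the 7 just named. Signals of strands called undetected thus repeated from array to array, most closely in columns 1 and 2.

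**Figure D2:**
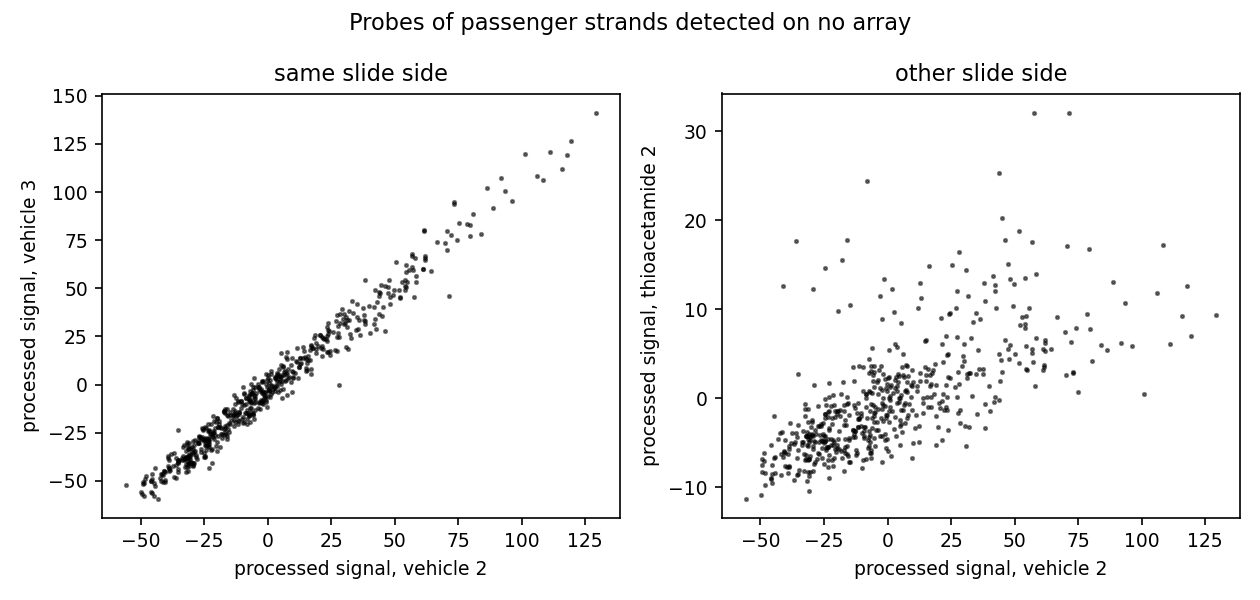
Processed signal of the 568 probes of undetected passenger strands, 1 point per probe, on vehicle 2 (horizontal) against vehicle 3 from the same slide side (left) and thioacetamide 2 from the other side (right). The points follow a line on the left (r of at least 0.981 for pairs in columns 1 and 2) and scatter on the right (r of 0.667). The arrays on the right differ in treatment as well as in side. Vehicle 1, also from the other side, is not drawn and had r of 0.869 with vehicle 2.

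The repeated pattern went with the base composition of the probe. The correlation between a probe's guanine share and its signal was 0.677, 0.687 and 0.676 on vehicle 2, vehicle 3 and thioacetamide 1, against 0.418, 0.272 and 0.305 on vehicle 1, thioacetamide 2 and thioacetamide 3. The share of cytosine ran the other way, with correlations of -0.529, -0.544 and -0.569 and then -0.512, -0.317 and -0.259 on the same arrays, so on vehicle 1 and thioacetamide 2 it was the stronger of these bases. On thioacetamide 1 the median signal went from -97.1 over 26 probes with at most 10% guanine to 168 over 42 probes with over 40%. On vehicle 2 the same medians were -32.4 and 61.8, and on vehicle 1 they were -1.83 and 4.77. Examples from the ends of this range, chosen for their signals on the arrays of columns 1 and 2, are printed with guanines in capitals.
miR-487b* probe, brightest: cGaaGaGGacaGGG
let-7e* probe, bright: GGaaaGctaGGaGGc
miR-23a* probe, dim: aaatcccatccc
miR-25* probe, dim: GcaattGcccGt
miR-24-1* probe, dim: ctGatatcaGctcaGt
let-7b* probe, for comparison: GGGaaGGcaGtaGGtt
The dim probes hold 0, 25 and 18.75% guanine in that order and gave -48.7, -49.7 and -48.2 on vehicle 2, so guanine share alone does not order them. The miR-487b* probe gave 129, 141 and 315 on vehicle 2, vehicle 3 and thioacetamide 1 but 7.46, 9.33 and 15.6 on vehicle 1, thioacetamide 2 and thioacetamide 3. The printed let-7b* probe, which is 50% guanine, gave 165, 158 and 371 and then 17.1, 36.8 and 50.8. On each array the brightest let-7b* probe was 1.07 to 1.49 times the highest undetected passenger probe, and that of let-7d* was 1.51 to 3.98 times. How much of the let-7b* and let-7d* signal in columns 1 and 2 came from this pattern was not tested.

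**Figure D3:**
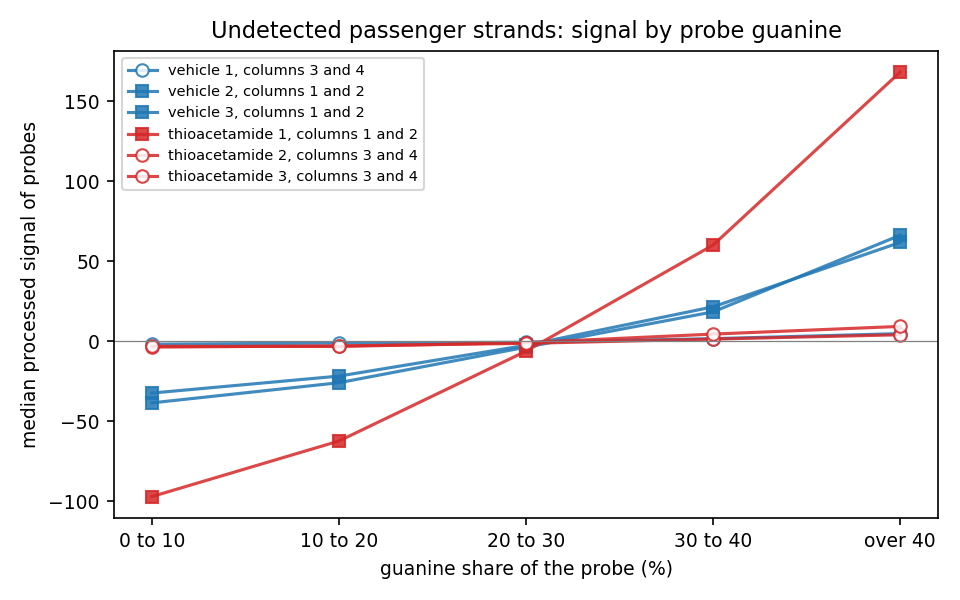
Median processed signal of probes of undetected passenger strands (vertical) by the guanine share of the probe (horizontal), 1 line per array; filled squares are slide columns 1 and 2 and open circles columns 3 and 4, blue is vehicle and red thioacetamide. The lines of columns 1 and 2 are steep, reaching 168 on thioacetamide 1, and those of columns 3 and 4 stay near 0.

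Detected and undetected passenger strands also differed in the target sequence itself. A run of 4 guanines (GGGG, searched on the strand of the miRNA in the bases that the probes cover) was present in 5 of the 13 detected passenger strands (38.5%), against 7 of 226 undetected ones (3.10%) and 13 of the 438 other miRNAs (2.97%). All 5 belonged to the 8 detected in columns 3 and 4 alone. The printed miR-211* ends in such a run, and miR-652* and miR-194* hold one. Among the other miRNAs that were detected the share was 7 of 86 (8.14%). The median guanine share of the mature sequence was 28.6% over the 11 detected strands with a sequence and 22.7% over the 208 undetected ones. These figures describe the members and carry no test.

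The guide strand was on the array for 238 of the 239 passenger strands, 204 by the same name and 34 after a locus number was removed. The signal of a strand depends on how well its own probes bind, so a ratio of signals is not a ratio of molecules. Signals are also sums over probes, and for let-7d*, let-7b*, miR-466b-1* and miR-483* the sum is over 4 probes against 2 for the guide. Their ratios are therefore larger than ratios per probe would be. Both strands were detected on the same array for 7 pairs and in 11 combinations of pair and array, and the passenger strand was the brighter in 8 of the 11. In 59 pairs the guide alone was detected and in 166 neither strand was. In 5 pairs (miR-208, miR-483, miR-652, miR-455 and miR-194) the passenger strand was detected and its guide on 0 arrays.

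The brightest passenger strands exceeded their guides. let-7d* had 3.71 times the signal of let-7d on vehicle 1 and 3.12 times on thioacetamide 3, the arrays with both detected. miR-140*, which RefSeq names miR-140-3p, had 2.99 times the signal of miR-140 on vehicle 1. miR-466b-1* had 3.93 and 3.10 times the signal of miR-466b on thioacetamide 2 and 3. Near or below equality were miR-150* at 1.08 times miR-150 and miR-466b-2* at 0.733 times miR-466b, both on thioacetamide 3. let-7b* was at 0.456 times let-7b on thioacetamide 3. On vehicle 2 and 3 let-7b was not detected, with signals of 64.4 and -3.37. The let-7b* sum over 4 probes was there 4.14 and 3.67 times the limit of a single probe, which is not a strict bound on the ratio. miR-328a* stood at 0.360 times miR-328a on vehicle 1, 1.26 times on thioacetamide 2 and 1.60 times on thioacetamide 3. For miR-328a* alone, the ratio could be set between 1 vehicle and 2 thioacetamide arrays. No pair was detected on enough arrays of both groups (at least 2 each) to test a change of the ratio.

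A passenger signal is a sum over probes, while the limit of a guide is that of a single probe. Where the guide was below its limit, the ratio was taken against the higher of that limit and the guide's own signal. This ratio is not a strict lower bound. For miR-208* it was 11.0, 4.72 and 1.94 on vehicle 1 to 3 and 10.4 and 20.5 on thioacetamide 2 and 3. The guide printed here for its arm, miR-208, had signals of -289 to -10.4 over the 6 arrays.
miR-208: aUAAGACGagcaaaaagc
miR-211: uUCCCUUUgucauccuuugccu
The miR-211 pair is shown because its strands were detected on opposite slide sides. miR-211 had 466, 495 and 1158 on vehicle 2, vehicle 3 and thioacetamide 1, where miR-211* was not detected. It had 43.7, 73.9 and 101 on vehicle 1, thioacetamide 2 and thioacetamide 3, where miR-211* was detected. The guide signals of thioacetamide 1 and vehicle 2 thus stood in about the proportion seen for the undetected probes.

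For guides with strong signals the passenger strand was bounded tightly. The following 4, which are outside the detected set and were chosen after their values were seen, gave the smallest upper bounds, from the lowest signal well above background of a single probe. miR-451*, the partner of the erythrocyte miRNA miR-451, was below 0.237% of the guide signal of 8265 on vehicle 1. miR-22* was below 0.422% of miR-22 on thioacetamide 3, where the guide, abundant in liver, had a signal of 11005. miR-16* was below 0.677% of miR-16 on vehicle 1, and miR-192* was below 1.24% of the liver-enriched miR-192 on thioacetamide 3. Of 185 upper bounds, 26 were under 5%.

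**Figure D4:**
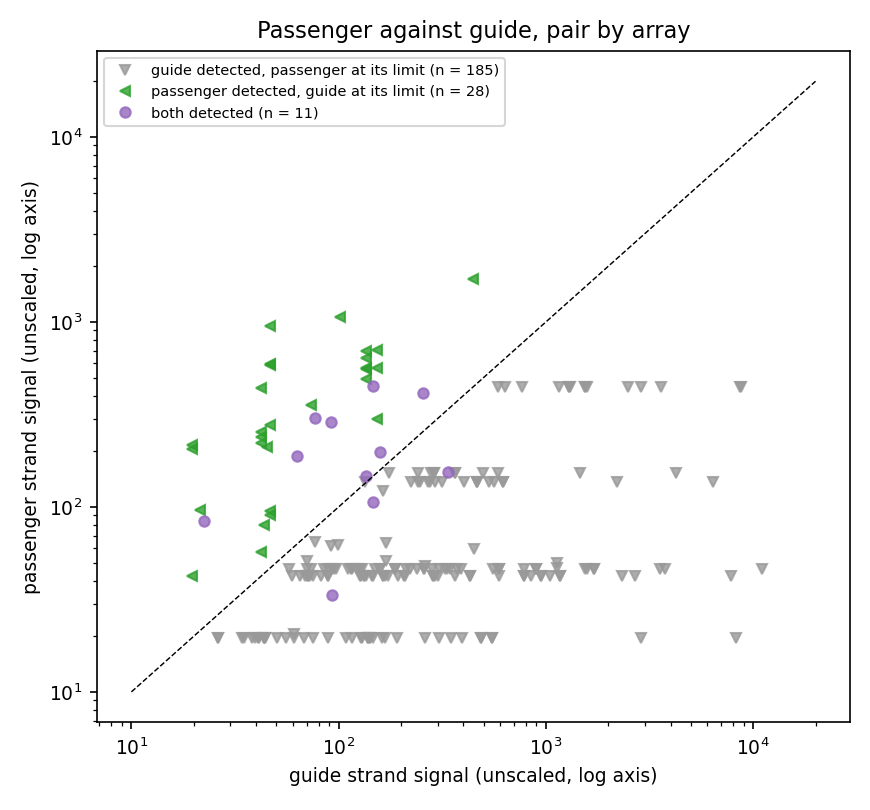
Passenger strand signal (vertical) against guide strand signal (horizontal), both unscaled on logarithmic axes, 1 point per pair and array. Purple circles have both strands detected (11), green marks have the guide at its limit or its own signal (28) and grey marks have the passenger at its limit or its own signal (185); the dashed line is equality, and 8 of the 11 purple circles lie above it.

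The comparison of thioacetamide with vehicle could be tested for the 9 passenger strands detected on at least 3 arrays, among 59 miRNAs tested together on scaled log2 signals. None of the 9 passed the threshold of 0.05 (limma, Benjamini-Hochberg over 59), and 0 had an unadjusted p under 0.05, against 10 of all 59 miRNAs past the threshold (16.9%; 15.3% higher and 1.69% lower) and 35.6% by unadjusted p. The 9 had passed the filter through the arrays on which they were bright, so their count is not one over all passenger strands. The middle value of their log2 changes was 0.31, compared with 0.45 over the 59, with 5 higher and 4 lower in direction. The treatment groups did not overlap for 0 of 9, against 22 of 59 (37.3%), and the slide sides did not overlap for 4 of 9 (miR-211*, let-7b*, miR-140* and let-7d*), against 15 of 59 (25.4%).

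The largest log2 change was that of miR-211*, at 2.21 ± 1.08 (SE, n = 3 per group; limma adjusted p = 0.214; 95% confidence interval -0.40 to 4.82). miR-652* had 1.60 ± 0.92 (limma adjusted p = 0.244) and miR-328a* 1.26 ± 0.87 (limma adjusted p = 0.311). For each of these 3 strands 2 vehicle arrays lay at the floor given to dim signals, so the sizes depend on it. The other 6 had changes between -0.64 (let-7b*) and 0.36 (miR-483*), with standard errors of 0.48 to 1.28. Those of let-7b*, let-7d*, miR-208* and miR-466b-1* were negative on the main scaling and turned positive with no scaling or spike-in scaling, and those of miR-140* and miR-483* turned negative with quantile normalization.

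The slide sides gave different pictures of the same 9 strands. Within columns 3 and 4, thioacetamide 2 and 3 were on average higher than vehicle 1 for 9 of 9, with a median log2 difference of 1.51, against 46 of 59 (78%) and 1.17 for all tested miRNAs. Within columns 1 and 2, thioacetamide 1 was higher than the mean of vehicle 2 and 3 for 0 of 9, with a median of -0.77, against 20 of 59 (33.9%) and -0.42. It was lower for 8 of 9, and miR-211* lay at the floor on all these arrays. These signals were scaled, with the largest factor on thioacetamide 1. Unscaled, thioacetamide 1 was above both vehicle arrays for let-7b*, let-7d*, miR-466b-1*, miR-652* and miR-211*. It was between them for miR-140* and miR-328a* and below both for miR-208* and miR-483*. miR-652* had 3.06 in columns 3 and 4 and -0.60 in columns 1 and 2, and miR-208* had 1.51 and -2.43. The difference between sides was not tested. With the slide side as a block, 0 of 9 passed (limma), against 14 of 59 (23.7%).

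Thioacetamide 1 carried the largest scale factor, 2.27, against 0.626 to 1.25 on the other arrays, and its detection limit was the highest. Without it, 3 of 9 passed, namely miR-211* (log2 change 3.46, limma adjusted p = 0.00377), miR-652* (2.57, 0.0194) and miR-328a* (2.14, 0.0338), against 27 of 59 (45.8%). With no scaling between arrays miR-211* (2.61, limma adjusted p = 0.0419) and miR-652* (2.15, 0.0417) passed, against 22 of 59 (37.3%), and with scaling to the labelling spike-in the same strands passed, against 37.3% again. Fitted on columns 3 and 4 alone, where the single vehicle array is assumed to vary like the others, 7 of 9 passed, against 62.7% of all tested. The 9 had passed the filter largely through those arrays and the vehicle side has no spread of its own, so this count gives no support for an effect of treatment. When every miRNA detected on at least 1 array was tested, 1 passenger strand of 13 passed, miR-455* (limma adjusted p = 0.0363), against 19.2% of 99. It entered through thioacetamide arrays alone, and its vehicle values were at or near the floor, which narrows their spread. This call therefore gives no support for a change.

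**Figure D5:**
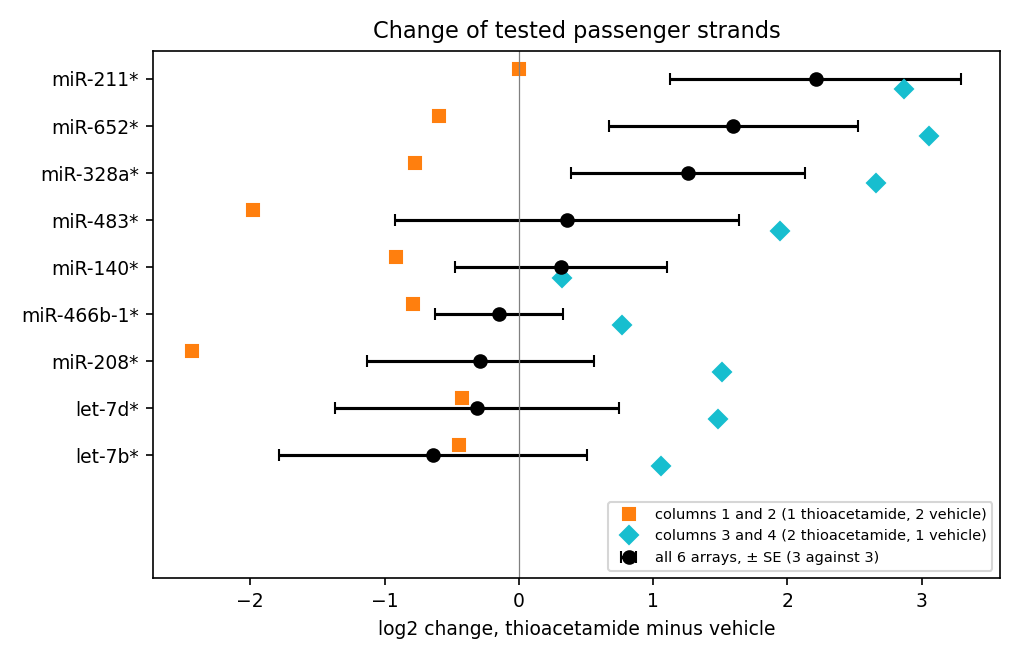
Log2 change of the 9 tested passenger strands, thioacetamide minus vehicle, on scaled and floored signals (horizontal). Black circles are all 6 arrays with the SE (3 against 3), orange squares are columns 1 and 2 (1 thioacetamide against 2 vehicle arrays) and turquoise diamonds columns 3 and 4 (2 against 1); the diamonds lie above 0 for all 9 and the squares at or below 0.

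As a share of the summed signal of all miRNAs detected on at least 1 array, which needs no scaling, passenger strands made up 5.41, 14.5 and 12.2% on vehicle 1 to 3 and 5.53, 4.63 and 5.48% on thioacetamide 1 to 3. Vehicle 2 and 3 were high, and vehicle 1 lay among the thioacetamide arrays. The mean was 10.7 ± 4.73% with vehicle and 5.21 ± 0.505% with thioacetamide (SD, n = 3 each; exact two-sided permutation test, p = 0.3). The difference was -7.82 percentage points within columns 1 and 2 and -0.349 within columns 3 and 4, and it was -3.04 when miR-122 and its passenger strand were left out of the total. Without vehicle 2 it was -3.58, and leaving out each other array in turn gave -8.14 (without vehicle 1) to -4.75. The summed unscaled signal of the 13 strands was 1046, 3335 and 1846 on vehicle 1 to 3 and 4180, 2540 and 5210 on thioacetamide 1 to 3. Within these sums let-7d* had 83.6, 693 and 701 on vehicle 1 to 3 and 1697, 211 and 286 on thioacetamide 1 to 3. let-7b* had 62.3, 563 and 562 and then 1348, 121 and 154. let-7d* and let-7b* thus weighed most on the arrays of columns 1 and 2, and the share without them was not tested. The log2 difference of the sums, 1.03, compares with an SD of 0.84 with vehicle and 0.53 with thioacetamide. The exact two-sided permutation test gave p = 0.2, where the smallest p possible is 0.1. Within columns 1 and 2 it was 0.75 and within columns 3 and 4 it was 1.80.

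By the origin of their miRNAs, the lists counted held 0 to 2 detected passenger strands each. The share over all passenger strands was 13 of 239 (5.44%), and the counts are too small to compare lists with it. Of the liver list 2 of 12 were detected, miR-194* and miR-455*, and of the leukocyte list 1 of 10, miR-150*. Of the stellate cell and fibrosis list 1 of 11 was detected, miR-140*, of the let-7 list 2 of 9 and of the muscle and heart list 1 of 6. None was detected of 11 erythrocyte, 11 miR-17 cluster, 8 platelet and endothelial, 5 miR-30, 13 brain and 8 epithelial passenger strands by the spot rule, and Feature Extraction's call added miR-193* and miR-30a* to the liver list (4 of 12), let-7e* to the let-7 list (3 of 9), miR-18a* of the miR-17 cluster, miR-30a* of the miR-30 family and miR-7a-2* of the brain list.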

How the data were processed

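Agilent Feature Extraction 10.7.3.1 is the software named in the submitters' processing notes. The spot intensity deposited by the authors has its background subtracted and is linear and unscaled. The software's calls that a spot is well above background (a multiple of 13, per the file headers) or that a miRNA is detected were used as deposited. Control spots and outliers were left out. A probe's value is the mean of its spots, and a miRNA's the sum over its probes. For the test, signals were scaled per array to the 75th percentile of 12 probes, those detected on all arrays. These include the let-7d* probes of 17 and 18 bases, so let-7d* helped to set the scale on which it was tested. The factors were 0.936 (vehicle 1), 0.776 (vehicle 2), 0.626 (vehicle 3), 2.27 (thioacetamide 1), 0.775 (thioacetamide 2) and 1.25 (thioacetamide 3). Lower values were set to 46.1, the 5th percentile of detected sums, before log2. limma 3.58.1 in R 4.3.3 (lmFit, eBayes) compared 3 with 3 arrays and was tested on simulated data. Single values per array had exact permutation tests (scipy 1.17.1 in Python 3.11.15). Body weights differ between arrays in the labels, so each array is an animal. The p-values measure the spread between arrays, in which animal, array and slide side are not separated, and the number of arrays limits the precision. Every passenger strand detected by either call is named, and other miRNAs only where stated. The members and lists were chosen with earlier results of these data known. Alternatives covered scaling, background, floor, filter, detection call, slide side, replicate number and each array left out.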

Additional observations from a re-analysis of the deposited data

How the results depend on the processing

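Of the 9 tested passenger strands, 0 passed the limma threshold under the 75th percentile over all probes, quantile normalization, scaling to the median of miRNAs found on all arrays, hybridisation spike-ins, normexp, both other floors, the other filters, the brightest probe and the side block. The exceptions were 2 with no scaling, 2 with labelling spike-ins, 7 in columns 3 and 4 alone, and 0 to 3 leaving out an array. Testing miRNAs detected on at least 1 array gave 1 call, miR-455*, which is not among the 9. The difference in strands detected per array was -3 in columns 1 and 2 alone and -0.33 to 5.67 leaving out an array, negative without thioacetamide 3. The share difference stayed negative, at -8.14 to -3.58 leaving out an array (-3.58 without vehicle 2, over 1.5 times smaller); its exact permutation p went from 0.3 to 0.1 with normexp and without vehicle 1. Pairs with both strands detected numbered 5 to 10. The replicate block gave 0 calls; correlations of same-numbered arrays' deviations were -0.70, -0.31 and -0.66, so the numbers do not pair the arrays. Log2 changes turned to 0.12, 0.44, 0.47 and 0.61 (let-7b*, let-7d*, miR-208*, miR-466b-1*) with no scaling, to 0.24, 0.57, 0.60 and 0.74 with labelling spike-ins, to 0.17, 0.49, 0.52 and 0.66 with hybridisation spike-ins and to 1.06, 1.48, 1.51 and 0.77 in columns 3 and 4. Over all probes, miR-208* and miR-466b-1* had 0.23 and 0.12. miR-140* and miR-483* had -0.10 and -0.19 with quantile normalization, -0.027 and -0.10 with the median scaling, -0.14 and -0.43 with normexp, -0.30 and -0.018 with the side block (let-7b* 0.31, let-7d* 0.53) and -0.92 and -1.98 in columns 1 and 2 (miR-328a* -0.77, miR-652* -0.60). With the brightest probe let-7d* had 0.13. Leaving out an array gave -1.84 to 0.037 for let-7b*, -1.48 to 0.35 for let-7d*, -0.19 to 1.13 for miR-140*, -0.81 to 0.55 for miR-208*, -0.54 to 0.22 for miR-466b-1* and -0.49 to 1.49 for miR-483*; miR-211* (1.36 to 3.46), miR-328a* (0.72 to 2.14) and miR-652* (0.96 to 2.57) stayed positive. The cause was not tested. Alternatives of the ratio change were not run, as 0 pairs qualified. The median over all tested miRNAs moved from 0.45 to 0.97 with no scaling and 0.02 with quantile normalization.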
